A study of Homo sapiens with 30 samples.

Results

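The cytosolic ribosome is built from ribosomal RNA and a fixed set of proteins, and 87 of the 57773 genes in the count tables were taken as its protein genes. They were the symbols that begin with RPL or RPS followed by a number, with an optional letter and number, together with RPLP0, RPLP1, RPLP2 and RPSA. Symbols of pseudogenes, in which a P and a number follow, were left out. By their Ensembl identifiers in GENCODE release 29, 84 of the 87 were protein coding, and RPL12L3 and RPS10L were processed pseudogenes. The set covers the small subunit (RPS genes and RPSA), the large subunit (RPL genes) and the P stalk of the large subunit (RPLP0, RPLP1 and RPLP2), where translation factors bind.

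The 4 tables hold RNA-seq of 3 human prostate cancer cell lines, 22 libraries in 14 groups, from a study of RB1 loss and of the histone demethylase LSD1 (KDM1A). RB1 is the retinoblastoma tumour suppressor, which restrains E2F transcription factors. In C4-2-tet-shRB cells, doxycycline switches on a short hairpin against RB1; no doxycycline-treated cells with a control hairpin were analysed here, so hairpin induction, doxycycline and RB1 loss cannot be told apart in them.

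VCaP cells received 20 nM of an siRNA against RB1 or of a non-targeting siRNA for 2 days, with 3 libraries each, in medium with 10% serum per the labels, although the library names refer to charcoal-stripped serum. One set of C4-2-tet-shRB cells was grown in 5% charcoal-stripped serum, which is low in steroids, and got doxycycline (0.05 µg/ml, 3 days) with 10 µM of the LSD1 inhibitor GSK2879552 for 24 h, doxycycline with DMSO, GSK2879552 alone, or DMSO alone (2 libraries each). Another set of C4-2-tet-shRB cells, in 8% charcoal-stripped and 2% regular serum, had 0, 3 or 30 days of doxycycline, each with 10 nM of the androgen dihydrotestosterone (DHT) or vehicle for 24 h (1 library each, read in 2 lanes). LNCaP cells, in 5% charcoal-stripped serum, got 1 µM GSK2879552 for 2 days or vehicle (1 library each). The labels do not state separate cultures, so p-values measure the spread between these libraries, which may be technical.

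Libraries held 4311455 to 7107036 counts in VCaP, 14515932 to 22326960 in the C4-2 experiment with GSK2879552, 14898454 to 16856486 in that with DHT and 13085157 to 14036346 in LNCaP. Values below are CPM, counts scaled to a common library size with TMM factors. RB1 checked the labels: it had 5.35, 6.74 and 7.41 CPM with RB1 siRNA, against 56.5, 60.0 and 63.9 CPM with control siRNA. It had 4.64 and 6.24 CPM with doxycycline and DMSO, against 23.4 and 26.1 CPM with DMSO, and 5.84 and 6.74 CPM with doxycycline and GSK2879552, against 32.7 and 22.1 CPM with GSK2879552. In the DHT experiment it had 6.25 to 10.0 CPM in the 4 libraries with doxycycline, against 48.1 and 51.1 CPM in those without. The luminal markers KLK3, KRT8, KRT18 and TMPRSS2 were present in every library, and the leukocyte marker PTPRC was at most 0.78 CPM.

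Ribosomal protein mRNAs are among the most abundant in a growing cell, and their proteins are made in matched amounts. In vertebrates most of these mRNAs begin with a cytosine and a run of pyrimidines, the 5′ terminal oligopyrimidine (TOP) motif, through which the kinase mTOR and the RNA-binding protein LARP1 set their translation. A few genes have paralogues, such as RPL22L1 for RPL22 and RPS27L for RPS27, that are expressed unevenly between tissues.

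RefSeq promoter windows on GRCh38.p14 were found for 67 of the 87 genes by symbol, and 47 of the 67 (70.1%) had a listed start that began with C and ran on as at least 5 C or T bases. The same held for 5.14% of 27305 genes with a window and for 6 of 69 mitochondrial ribosomal protein genes. The genes shown recur in the comparisons below, each with 20 bases before and 10 bases from its listed start, and capitals mark a C and T run of at least 5 from the first transcribed base. RPL3, the first listed start of RPL11, and RPS27L have no such run.
RPSA at chr3:39406700-39406729, plus strand: cgtcatttcctgccgcctgtCTTTTCCgtg
RPS6 at chr9:19380227-19380256, minus strand: gcgctaagcggaagttggccCTCTTTTCCg
RPL3 at chr22:39319614-39319643, minus strand: gacccgtaaggccgaccggcctctaccggc
RPL11, first listed start, at chr1:23691759-23691788, plus strand: gagcccgcctcctggcccataaggccctcg
RPL11, second listed start, at chr1:23691786-23691815, plus strand: tcggccggaagctccgctttCTCTTCCTgc
RPL13A at chr19:49487588-49487617, plus strand: ccctgcgacaaaacctcctcCTTTTCCaag
RPL22 at chr1:6199586-6199615, minus strand: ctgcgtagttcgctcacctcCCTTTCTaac
RPL22L1 at chr3:170870186-170870215, minus strand: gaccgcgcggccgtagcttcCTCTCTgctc
RPL26 at chr17:8383184-8383213, minus strand: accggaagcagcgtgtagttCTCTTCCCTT
RPLP0 at chr12:120201102-120201131, minus strand: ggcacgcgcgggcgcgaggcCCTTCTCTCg
RPS27 at chr1:153990742-153990771, plus strand: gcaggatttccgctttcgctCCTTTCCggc
RPS27L at chr15:63157468-63157497, minus strand: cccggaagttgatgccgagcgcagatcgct
In the 300 bases from 250 before to 50 after a start, on either strand, the ETS-type motif CCGGAAG was found in 35.8% of the 67 genes, in 43.5% of mitochondrial ribosomal protein genes and in 12.2% of all genes with a window. The E-box CACGTG was in 7.46% of the 67 and 8.77% of all, and TATAAA in 7 of the 67 and 3819 of all. These matches describe the letters only.

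The ribosomal protein genes took a smaller share of all gene counts with RB1 siRNA in VCaP, with doxycycline in the GSK2879552 experiment and with DHT than in the matching controls. In VCaP the share was 4.50%, 4.54% and 4.50% with RB1 siRNA, against 4.90%, 4.70% and 4.77% with control siRNA. In C4-2-tet-shRB cells it was 3.57% and 3.42% with doxycycline and GSK2879552 and 3.58% and 3.53% with doxycycline and DMSO, against 3.91% and 4.10% with GSK2879552 and 3.88% and 3.84% with DMSO. The doxycycline and the control libraries did not overlap in either pair. With DHT the share was 2.29%, 2.14% and 2.16% at 0, 3 and 30 days of doxycycline, against 2.73%, 2.77% and 2.72% with vehicle. Among the vehicle libraries, that with 3 days of doxycycline was therefore above the one without. In LNCaP it was 2.73% with GSK2879552, against 2.77% with vehicle. Levels are not compared between tables, since mRNA kits were used for the VCaP and GSK2879552 experiments and total RNA kits for the others, per the labels. A lower share cannot be told apart from more RNA of other genes in bulk samples.

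**Figure D1:**
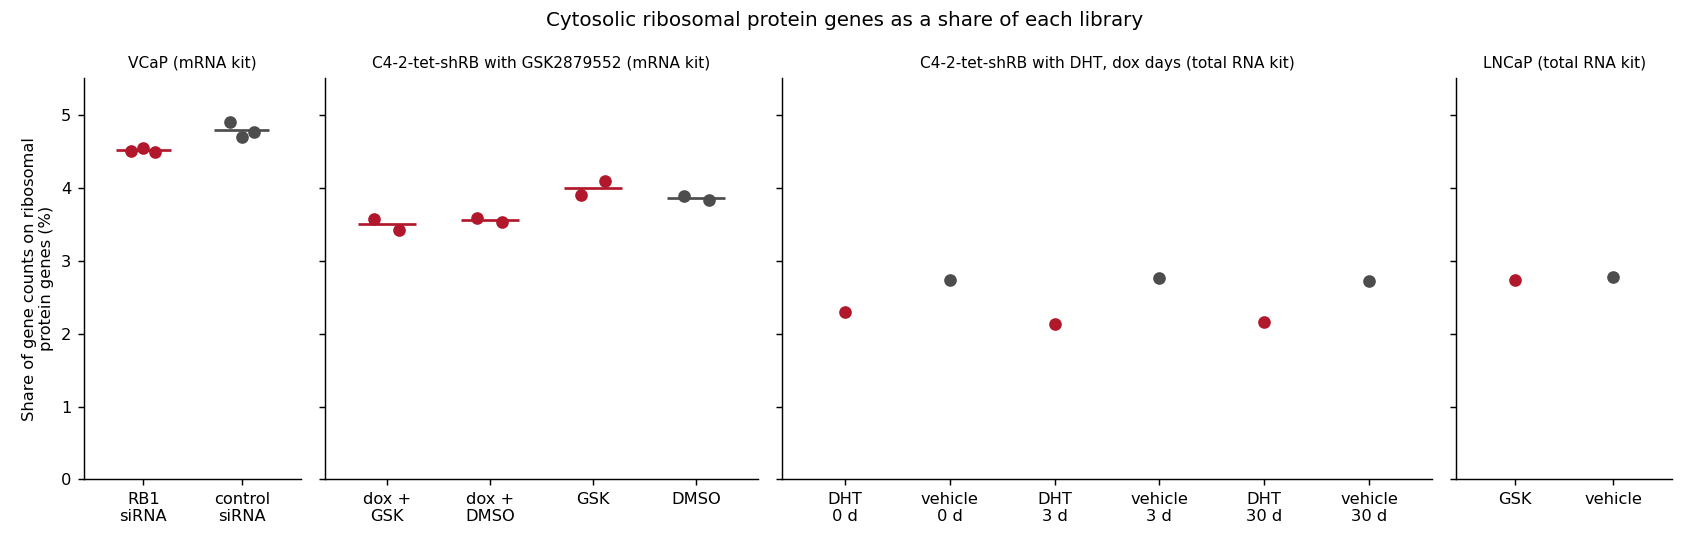
Share of all gene counts on the 87 ribosomal protein genes (y axis, %) in each library (points), with the mean of groups that have replicates as a line; red marks treated groups and grey their controls. RB1 siRNA libraries sit at 4.50% to 4.54%, below the control siRNA libraries, and each DHT library sits below its vehicle library.

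RB1 siRNA in VCaP asks what 2 days of RB1 depletion do to these genes. Of the 80 ribosomal protein genes with enough counts to test (80 of 87), 27 fell and 0 rose by the quasi-likelihood test of edgeR, at a Benjamini-Hochberg adjusted p under 0.05. Over the 14066 genes tested, 2.65% fell and 2.96% rose. The falls were small: the median log2 fold change was -0.09 for the ribosomal protein genes, 72 of 80 were below 0, and the median over all genes tested was -0.00. Among genes whose log2 CPM averaged 5 or more, 27 of 68 ribosomal protein genes fell and 299 of all 6601. At an unadjusted p under 0.05, 43 of the 80 were lower and 0 were higher, and DESeq2 called 17 lower and 0 higher. The RB1 siRNA libraries lay below all control siRNA libraries for 39 of the 80, and above them for 2, against 10.6% and 10.7% of all genes tested.

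Of the small subunit, 11 of 31 genes fell in VCaP, with a median of -0.10. RPS6, the small subunit protein phosphorylated by S6 kinases, had 2048, 2072 and 2082 CPM with RB1 siRNA, against 2337, 2198 and 2291 CPM with control siRNA. RPS2, a protein near the mRNA entry channel, had 299, 290 and 302 CPM with RB1 siRNA, against 350, 328 and 325 CPM with control siRNA. For both genes the groups did not overlap, and the log2 fold changes were -0.14 ± 0.03 (SE, adjusted p = 0.000177 by edgeR's quasi-likelihood test) for RPS6 and -0.17 ± 0.04 (adjusted p = 0.00083) for RPS2. RPSA, which is also known as a laminin receptor, had 203, 222 and 213 CPM with RB1 siRNA, against 253, 234 and 225 CPM with control siRNA. Its fold change was -0.16 ± 0.04 and its call ended without control replicate 1 (-0.11) or RB1 siRNA replicate 1 (-0.13). RPS28 changed by -0.28 ± 0.09, with an adjusted p of 0.0465 by the same test. That call ended without control replicate 1 (-0.20) or 2 (-0.22) or RB1 siRNA replicate 2 (-0.29) or 3 (-0.24).

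Of the large subunit outside the P stalk, 14 of 46 genes fell in VCaP, with a median of -0.07. RPL13A, which in human monocytes also takes part in silencing inflammatory mRNAs, had 975, 994 and 977 CPM with RB1 siRNA, against 1169, 1074 and 1085 CPM with control siRNA. RPL22 had 274, 279 and 277 CPM with RB1 siRNA, against 311, 309 and 326 CPM with control siRNA. Both were lower in all 3 RB1 siRNA libraries, at -0.18 ± 0.03 (SE, adjusted p = 8.98e-06 by edgeR's quasi-likelihood test) for RPL13A and -0.19 ± 0.04 (adjusted p = 0.000141) for RPL22. Both held their calls without any single library. RPL5 and RPL11 form, with 5S RNA, the particle that binds MDM2. RPL5 had 697, 696 and 713 CPM with RB1 siRNA, against 779, 738 and 756 CPM with control siRNA, while RPL11 had 1062, 1099 and 1067 CPM, against 1151, 1075 and 1139 CPM. RPL5 fell by 0.11 on the log2 scale, a call that ended without control replicate 1 (-0.09) or 3 (-0.11) or RB1 siRNA replicate 2 (-0.10), and RPL11, whose groups overlapped, was at -0.06 with no call. RPL23A was at -0.27 ± 0.09 with an adjusted p of 0.0469 by the same test. Its call ended without control replicate 1 (-0.28), 2 (-0.26) or 3 (-0.29) or RB1 siRNA replicate 1 (-0.18). The count of 27 was 13 to 23 when single libraries were left out, and lowest without control replicate 1.

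In the P stalk of VCaP, 2 of 3 genes fell. RPLP0, the stalk base, had 1059, 1094 and 1089 CPM with RB1 siRNA, against 1212, 1150 and 1155 CPM with control siRNA. RPLP1 had 805, 837 and 735 CPM with RB1 siRNA, against 893, 894 and 841 CPM with control siRNA, and RPLP2 had 707, 726 and 690 CPM, against 738, 687 and 715 CPM. RPLP0 fell by 0.12 and RPLP1 by 0.14 on the log2 scale without overlap of the groups, and RPLP2 overlapped at -0.01. The call of RPLP0 ended without control replicate 1 (-0.10) and that of RPLP1 without RB1 siRNA replicate 3 (-0.09).

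Genes linked to the ribosome in other ways did not all follow in VCaP. Of 17 translation factors and other mRNAs known to start with a TOP motif, 7 fell and 0 rose. Among them was the elongation factor EEF1A1, with 538, 543 and 544 CPM in RB1 siRNA cells, against 653, 619 and 673 CPM in control siRNA cells (-0.26 ± 0.03). Of 50 ribosome biogenesis factors 0 rose and 0 fell by edgeR's quasi-likelihood test (before adjustment, 3 were higher and 1 lower at a p under 0.05), with a median of -0.01. Of 12 snoRNA host genes 2 rose, against 2.96% of all genes tested. Of 74 mitochondrial ribosomal protein genes 2 fell, near the 2.65% of all genes tested that fell. Each of the 13 mRNAs made in mitochondria fell too, with a median of -0.24, and their share of counts was 2.09% to 2.21% with RB1 siRNA, against 2.44% to 2.58% with control siRNA. Their part in the lower ribosomal protein values was not tested.

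**Figure D2:**
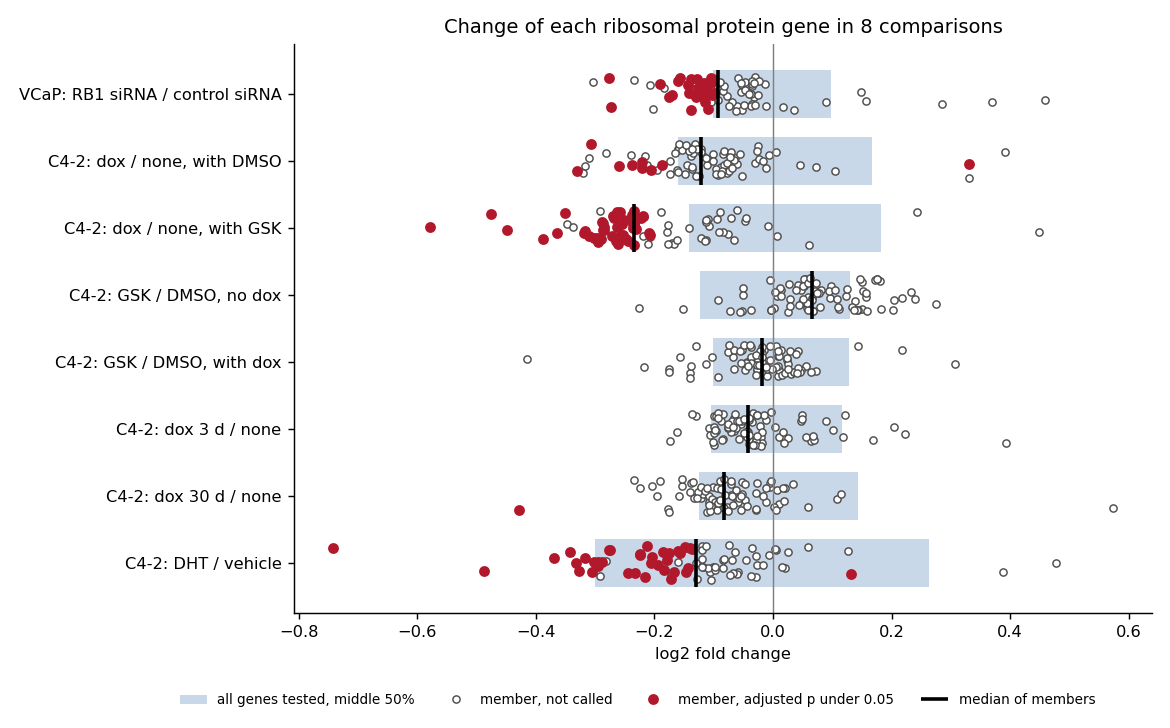
Log2 fold change (x axis) of each tested ribosomal protein gene (points) in 8 comparisons (rows), with the median of these genes as a black bar and the middle 50% of all genes tested as a blue band. Filled red points passed an adjusted p of 0.05; members shift left of 0 with RB1 siRNA (median -0.09), with doxycycline under GSK2879552 (-0.23) and with DHT (-0.13).

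Doxycycline in C4-2-tet-shRB cells asks the same of the inducible hairpin, once with DMSO and once with GSK2879552. With DMSO, 8 of 83 ribosomal protein genes tested fell and 1 rose, while 3.59% of 18423 genes fell and 4.25% rose. Fitting these 2 groups alone gave 33 lower and 2 higher. Their median was -0.12, against -0.00 for all genes, and 76 of 83 were below 0. Doxycycline libraries lay below both DMSO libraries for 59 of the 83 and above them for 4, against 28.7% and 28.2% of all genes tested.

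The falls with DMSO were led by RPL11, RPS9 and RPL3. RPL11 had 486 and 496 CPM with doxycycline, against 638 and 598 CPM with DMSO alone. RPS9, a small subunit protein near the mRNA entry channel, had 386 and 387 CPM with doxycycline, against 496 and 461 CPM with DMSO alone. RPL3, which lies close to the peptidyl transferase centre, had 1844 and 1797 CPM with doxycycline, against 2209 and 2150 CPM with DMSO alone. None of these groups overlapped, and the changes were -0.33 ± 0.06 (SE, adjusted p = 0.00292 by edgeR's quasi-likelihood test) for RPL11, -0.31 ± 0.06 (adjusted p = 0.00746) for RPS9 and -0.26 ± 0.06 (adjusted p = 0.00748) for RPL3. RPS6 had 1320 and 1314 CPM with doxycycline, against 1517 and 1520 CPM without, at -0.21. RPL24 was at -0.24 and RPL4 at -0.22. RPL5 (-0.12), RPL13A (-0.16), RPSA (-0.07), RPLP0 (-0.01), RPLP1 (0.07) and RPLP2 (-0.14) were not called.

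RPS27L, a p53-regulated paralogue of RPS27, was the gene that rose with doxycycline and DMSO. It had 68.4 and 67.6 CPM with doxycycline, against 54.8 and 53.3 CPM with DMSO alone, and its groups did not overlap (0.33 ± 0.08, adjusted p = 0.0121 by edgeR's quasi-likelihood test). RPS27 had 11.6 and 11.2 CPM with doxycycline, against 13.9 and 14.6 CPM without, and was not called at -0.32 ± 0.12. Of 20 p53 targets 5 rose, against 4.25% of all genes tested. Among the 5 was CDKN1A, the cell cycle inhibitor p21, with 195 and 183 CPM against 113 and 111 CPM (0.75 ± 0.07). MDM2, also on the list, had 78.4 and 84.6 CPM against 77.1 and 77.2 CPM. BAX had 34.6 and 37.4 CPM against 41.7 and 35.4 CPM. A link of these genes to RPS27L was not tested.

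These calls rest on single libraries. The count of 8 was 0 without DMSO replicate 1, doxycycline replicate 1 or doxycycline replicate 2, and 4 without DMSO replicate 2. It was 24 without GSK2879552 replicate 1 or 2, which enter only through the shared spread. Without any 1 of the first 3 libraries the calls of RPL11 (-0.28 to -0.35), RPS9 (-0.25 to -0.31), RPL3 (-0.24 to -0.28) and RPL24 (-0.17 to -0.26) ended. Without any 1 of the 4 the calls of RPL4 (-0.20 to -0.25), RPS6 (-0.20 to -0.21) and RPS27L (0.31 to 0.35) ended. That of RPL24 also ended without doxycycline and GSK2879552 replicate 1 (-0.23) or 2 (-0.24). The share of counts on mitochondrial protein genes was 2.72% and 3.58% in the DMSO libraries and 3.99% to 4.61% in the other 6, and 12 of those 13 genes rose with doxycycline and DMSO. Their part in the lower values was not tested.

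With GSK2879552 present, 42 of 83 ribosomal protein genes fell with doxycycline and 0 rose, against 3.2% and 4.52% of 18423 genes. Fitting these 2 groups alone gave 8 lower and 0 higher, so that the order of the counts with GSK2879552 and with DMSO (33 lower) turned round. The median was -0.23, against 0.01 for all genes, and 79 of 83 were below 0. At an unadjusted p under 0.05, 57 were lower and 2 higher, and DESeq2 called 44 lower and 0 higher. Libraries with doxycycline and GSK2879552 lay below both libraries with GSK2879552 alone for 62 of the 83 and above them for 2, against 21.9% and 24.8% of all genes tested.

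By subunit, 16 of 32 small subunit genes, 25 of 48 large subunit genes outside the P stalk and 1 of 3 P stalk genes fell. RPS25, which initiation on some viral internal ribosome entry sites requires, had 288 and 276 CPM with doxycycline and GSK2879552, against 385 and 354 CPM with GSK2879552. RPL34 had 196 and 196 CPM with doxycycline and GSK2879552, against 261 and 243 CPM with GSK2879552. The groups stood apart for both genes, at -0.39 ± 0.07 (SE, adjusted p = 0.0023 by edgeR's quasi-likelihood test) for RPS25 and -0.36 ± 0.06 (adjusted p = 0.00225) for RPL34. Both calls held without any single library. RPS6 had 1354 and 1271 CPM with doxycycline and GSK2879552, against 1681 and 1593 CPM with GSK2879552 (-0.32 ± 0.06, adjusted p = 0.00231 by the same test). Its call ended without doxycycline and GSK2879552 replicate 2 (-0.29, adjusted p = 0.0534 by edgeR's quasi-likelihood test).

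Of the genes followed throughout, RPL11 (-0.32), RPL3 (-0.27), RPL26 (-0.30), RPL5 (-0.24), RPL13A (-0.23) and RPLP2 (-0.27) also fell. Their calls ended without doxycycline and GSK2879552 replicate 2, where they were -0.28, -0.24, -0.29, -0.25, -0.21 and -0.22. Those of RPL26 (-0.33), RPL5 (-0.24) and RPL13A (-0.29) also ended without doxycycline and GSK2879552 replicate 1, RPL5 and RPL13A without either doxycycline and DMSO library (-0.25 each), and RPL13A without GSK2879552 replicate 2 (-0.17). RPSA (0.01), RPLP0 (-0.09) and RPLP1 (-0.01) were not called. In this experiment RPL13A had 98602 counts of its own and 133346 on pseudogene rows. RPSA had 41747 and 51205, so the values of both genes are uncertain here. The count of 42 was 2 without doxycycline and GSK2879552 replicate 2, 19 without replicate 1 of that group and 58 without GSK2879552 replicate 1.

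The largest falls were in genes of low level. RPS10 had 9.98 and 7.87 CPM with doxycycline and GSK2879552, against 14.5 and 12.2 CPM with GSK2879552 (-0.58 ± 0.14). RPL26L1, a paralogue of RPL26, had 14.1 and 11.9 CPM, against 17.2 and 19.2 CPM (-0.48 ± 0.12), and RPS27 had 12.2 and 11.3 CPM, against 16.9 and 15.1 CPM (-0.45 ± 0.12). None of the 3 pairs of groups overlapped, yet RPS10 was at -0.09 with no call when reads of its pseudogenes were added. Without doxycycline and GSK2879552 replicate 2 the calls of RPS10 (-0.44), RPL26L1 (-0.38) and RPS27 (-0.41) ended. That of RPS27 also ended without replicate 1 of that group (-0.52) or GSK2879552 replicate 1 (-0.37).

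Related lists had these counts under doxycycline with GSK2879552, with no test of them against the ribosomal protein genes. Over all genes tested 3.2% fell and 4.52% rose. Of 17 other TOP mRNAs 4 fell, of 50 ribosome biogenesis factors 1 fell, of 75 mitochondrial ribosomal protein genes 5 fell, and of 14 RNA polymerase I genes and factors 0 fell and 0 rose by edgeR's quasi-likelihood test (2 lower and 0 higher at an unadjusted p under 0.05). EIF4EBP1, the inhibitor of the cap-binding protein eIF4E, rose, with 198 and 185 CPM against 126 and 159 CPM (0.43 ± 0.09). Of 20 p53 targets 6 rose, and RPS27L had 72.2 and 78.2 CPM, against 64.5 and 62.4 CPM, with no call (0.24 ± 0.07, adjusted p = 0.055 by edgeR's quasi-likelihood test). Of the 13 mitochondrial protein genes 0 rose and 0 fell, with 1 lower at an unadjusted p under 0.05 by edgeR.

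**Figure D3:**
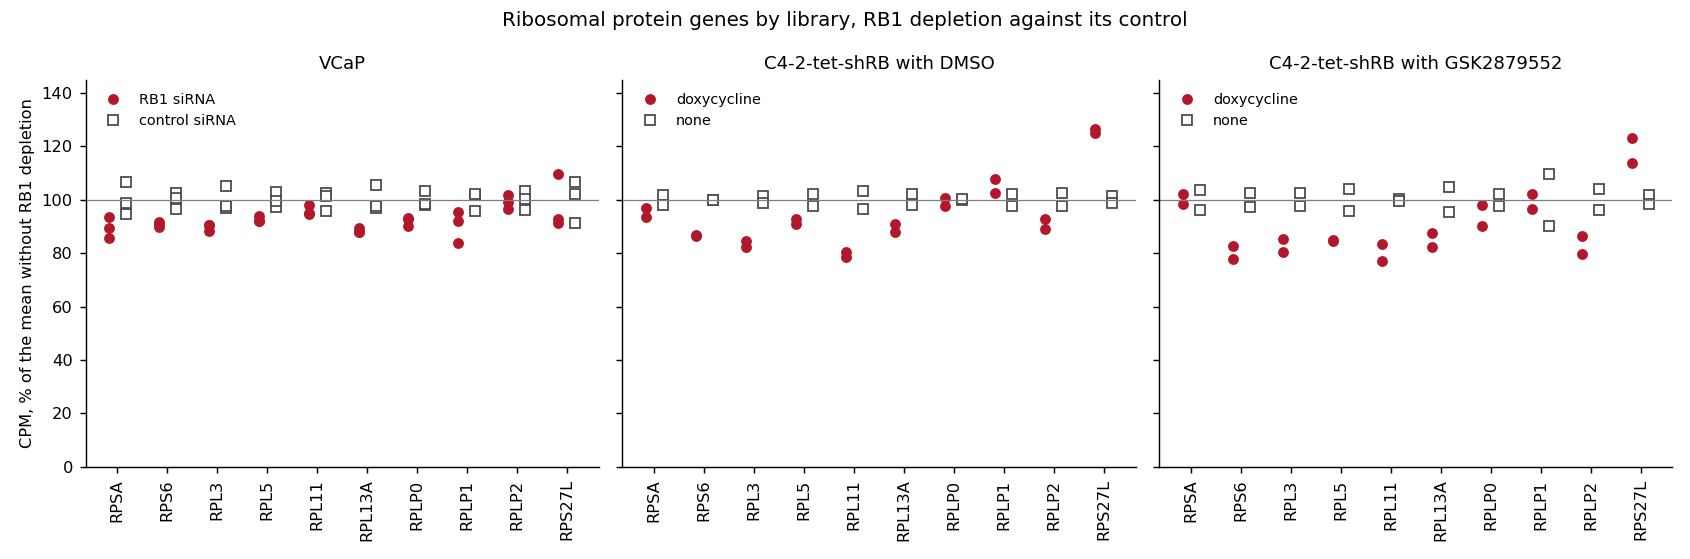
CPM of 10 ribosomal protein genes in each library as a percentage of the mean of the control libraries (y axis), with RB1 depletion (red circles, left) and control (open squares, right) for each gene. RPS6, RPL3 and RPL13A sit below the controls in all 3 panels, whereas RPS27L is above them in both C4-2-tet-shRB panels and overlaps in VCaP.

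The doxycycline response with GSK2879552 minus that with DMSO had a median of -0.10 over the 83 genes, with 73 below 0, but 0 rose and 0 fell, against 0% and 0.0163% of all genes by edgeR's quasi-likelihood test. Before adjustment 5 were lower and 0 higher (p under 0.05), and DESeq2 called 0 in either direction. Without GSK2879552 replicate 1, 3 fell, and without replicate 2, 1 fell. With all libraries, the counts of 8 with DMSO and 42 with GSK2879552 are thus not shown to differ for any single gene.

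GSK2879552 itself left the ribosomal protein genes without a call in C4-2-tet-shRB cells. Without doxycycline 0 of 83 rose and 0 fell, against 0.619% and 0.0597% of all genes, and the median was 0.07. By edgeR's quasi-likelihood test 18 were higher and 0 lower before adjustment (p under 0.05), and DESeq2 called 1 higher and 0 lower. Without GSK2879552 replicate 1, 4 rose, and without replicate 2, 7 rose and 3 fell. GSK2879552 libraries lay above both DMSO libraries for 36 of the 83 and below them for 1, against 18.8% and 18.4% of all genes tested. RPS6 was at 0.11 ± 0.06, RPL5 at 0.17 ± 0.06, RPL26 at 0.20 ± 0.06 and RPS27L at 0.23 ± 0.08. These comparisons share their DMSO and GSK2879552 libraries with the doxycycline comparisons.

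In cells with doxycycline, GSK2879552 gave a median of -0.02 over the 83 genes, with 0 rising and 0 falling, against 1.24% and 0.0923% of all genes. By edgeR's quasi-likelihood test 1 was lower and 0 higher before adjustment (p under 0.05), and DESeq2 called 0 in either direction. Without either library of GSK2879552 alone, 2 fell. Doxycycline libraries with GSK2879552 lay above those with DMSO for 9 genes and below for 15, against 23.7% and 22.6% of all genes tested. RPS6 was at -0.01 ± 0.06 and RPL5 at 0.06 ± 0.06.

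LNCaP cells, the parent of C4-2, were given GSK2879552 in 1 library, so the ratio to vehicle has no replicate check and its 95% interval (exact Clopper-Pearson) covers counting error only. Of 78 ribosomal protein genes whose counts in both libraries summed to 100 or more, 2 were at least 1.5-fold higher and 4 at least 1.5-fold lower, against 7.22% and 6.94% of genes. The median ratio was 0.987. RPS6 had 1489 CPM with GSK2879552, against 1322 CPM with vehicle (ratio 1.13, 1.10 to 1.15), and RPL13A had 1110 CPM, against 1275 CPM (0.871, 0.852 to 0.890). RPL3 had 1049 CPM, against 1298 CPM (0.809, 0.791 to 0.827). The abundant genes thus went both ways.

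Among the extreme LNCaP ratios were genes of few and of many reads. RPL36A had 2.00 CPM with GSK2879552, against 5.33 CPM with vehicle (0.375, 0.230 to 0.594), and RPS10 had 6.93 CPM, against 15.9 CPM (0.437, 0.338 to 0.561). RPS28 was at 0.605 (0.532 to 0.686). The fourth, RPS16, named after its value was seen, had 135 CPM with GSK2879552, against 209 CPM with vehicle (0.648, 0.611 to 0.688), from 1758 and 2895 counts. At the upper end, RPS27 had 6.39 CPM, against 3.03 CPM (2.11, 1.44 to 3.14), RPL10L, a testis-expressed paralogue of RPL10, was at 1.55 (1.15 to 2.10) and RPL26 at 1.40 (1.33 to 1.48). RPS27L had 69.7 CPM with GSK2879552, against 54.8 CPM with vehicle (1.27, 1.15 to 1.40). Of 20 p53 targets 16 were above 1. That count comes from 1 library per group, was not set against the share of all genes above 1, and was not tested. The mitochondrial protein genes took 0.220% of counts with GSK2879552, against 0.336% with vehicle. All mitochondrial genes together took 18.8%, against 19.2%.

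In the DHT experiment doxycycline was compared over both DHT and vehicle. With 3 days of doxycycline 0 of 83 ribosomal protein genes rose and 0 fell, against 0.272% and 0.197% of 17300 genes. The median was -0.04, and by edgeR's quasi-likelihood test 1 was lower and 0 higher before adjustment (p under 0.05). With 30 days 0 rose and 1 fell, against 2.51% and 1.52% of all genes, with a median of -0.08 and 8 lower and 1 higher before adjustment. Between 30 and 3 days 0 rose and 0 fell, against 0.254% and 0.0694%, with 2 lower and 0 higher before adjustment. DESeq2 called 0 in all 3 comparisons.

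The gene that fell at 30 days was RPL17, which lines the peptide exit tunnel. It had 14.2 CPM with DHT and 14.8 CPM with vehicle after 30 days of doxycycline, against 19.1 CPM with DHT and 20.0 CPM with vehicle without doxycycline (-0.43 ± 0.11, adjusted p = 0.0276 by edgeR's quasi-likelihood test). The call ended without the DHT library with no doxycycline (-0.37) or either library of 30 days (-0.35 without vehicle, -0.50 without DHT). Without the vehicle library of 0 days, 19 genes fell at 30 days, 5 fell and 1 rose at 3 days, and 2 fell between the times. Between the times 2 also fell without the DHT library of 0 days and 1 without that of 30 days. RPS6, RPL3 and RPL5 lay between -0.04 and -0.08 at both times. This experiment differs from that with DMSO in serum, kit and replication, and the size of its doxycycline response was not compared with it by a test.

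DHT against vehicle asks what androgen does over the 3 doxycycline levels. Of 83 ribosomal protein genes, 36 fell and 1 rose by edgeR's quasi-likelihood test, against 22.8% and 24.3% of 17300 genes. The median was -0.13 for the ribosomal protein genes and -0.02 for all genes, and it was 0.05 for genes whose log2 CPM averaged 5 or more. DHT libraries were lower than vehicle at all 3 doxycycline levels for 52 of the 83 and higher for 2, against 34.2% and 32.6% of all genes tested. DESeq2 called 25 lower and 0 higher.

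Of the small subunit, 16 of 32 genes fell with DHT. RPS2 had 156, 149 and 140 CPM with DHT at 0, 3 and 30 days of doxycycline, against 189, 194 and 182 CPM with vehicle. RPSA had 141, 137 and 131 CPM with DHT, against 164, 181 and 164 CPM with vehicle. Every DHT library lay below every vehicle library for both, at -0.34 ± 0.05 (SE, adjusted p = 5.34e-06 by edgeR's quasi-likelihood test) for RPS2 and -0.32 ± 0.06 (adjusted p = 2.32e-05) for RPSA. RPS6 had 1275, 1166 and 1125 CPM with DHT, against 1309, 1341 and 1350 CPM with vehicle, a smaller fall of 0.17 on the log2 scale. The call of RPS6 ended without either library of 3 days (-0.15 each) or of 30 days (-0.12 each).

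Of the large subunit outside the P stalk, 19 of 48 genes fell with DHT and 1 rose. RPL13A had 489, 405 and 412 CPM with DHT, against 555, 560 and 566 CPM with vehicle. RPL5 had 305, 286 and 274 CPM with DHT, against 355, 357 and 352 CPM with vehicle, and RPL22 had 51.6, 54.1 and 48.5 CPM, against 64.9, 63.2 and 65.9 CPM. In all 3 genes the groups stood apart, at -0.37 ± 0.06 (adjusted p = 5.57e-06 by edgeR's quasi-likelihood test) for RPL13A, -0.30 ± 0.05 for RPL5 and -0.33 ± 0.06 for RPL22. RPL36A was low, with 2.18, 2.65 and 2.22 CPM against 3.94, 4.41 and 3.48 CPM (-0.74 ± 0.20), and DESeq2 did not call it (adjusted p = 0.0721). RPL10 was at -0.17 and RPL3 at -0.15, and RPL11 was not called at -0.12. The calls of RPL10 and RPL3 ended without either library of 3 days (-0.17 and -0.11) or of 30 days (-0.15 and -0.11).

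RPL22L1 was the gene that rose with DHT, while its paralogue RPL22 fell. It had 500, 492 and 479 CPM with DHT, against 445, 463 and 435 CPM with vehicle (0.13 ± 0.05, adjusted p = 0.0387 by edgeR's quasi-likelihood test). The DHT libraries lay above the vehicle libraries, yet the call ended without either library of 3 days (0.15 without vehicle, 0.16 without DHT) or of 30 days (0.13 each). DESeq2 did not call it. RPL36AL, a paralogue of RPL36A outside the symbol rule, had 209, 177 and 178 CPM with DHT, against 139, 143 and 127 CPM with vehicle (0.46 ± 0.06).

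In the P stalk, RPLP0 had 590, 535 and 541 CPM with DHT, against 652, 669 and 653 CPM with vehicle (-0.24 ± 0.05, adjusted p = 0.000454 by edgeR's quasi-likelihood test), without overlap. RPLP1 (-0.10) and RPLP2 (-0.12) were not called. When single libraries were left out, which leaves 1 residual degree of freedom, the count of 36 was 18 without the 3-day DHT library, 20 without the 3-day vehicle library and 23 without the 30-day DHT library. The mitochondrial protein genes, of which 6 of 13 rose with DHT, took 0.105% to 0.128% of counts in these libraries. All mitochondrial genes together took 11.3%, 11.8% and 10.4% of counts with DHT at 0, 3 and 30 days of doxycycline. With vehicle they took 10.4%, 9.55% and 9.93%. The part of mitochondrial genes in the lower values was not tested. A single DHT effect was fitted for the 3 levels.

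**Figure D4:**
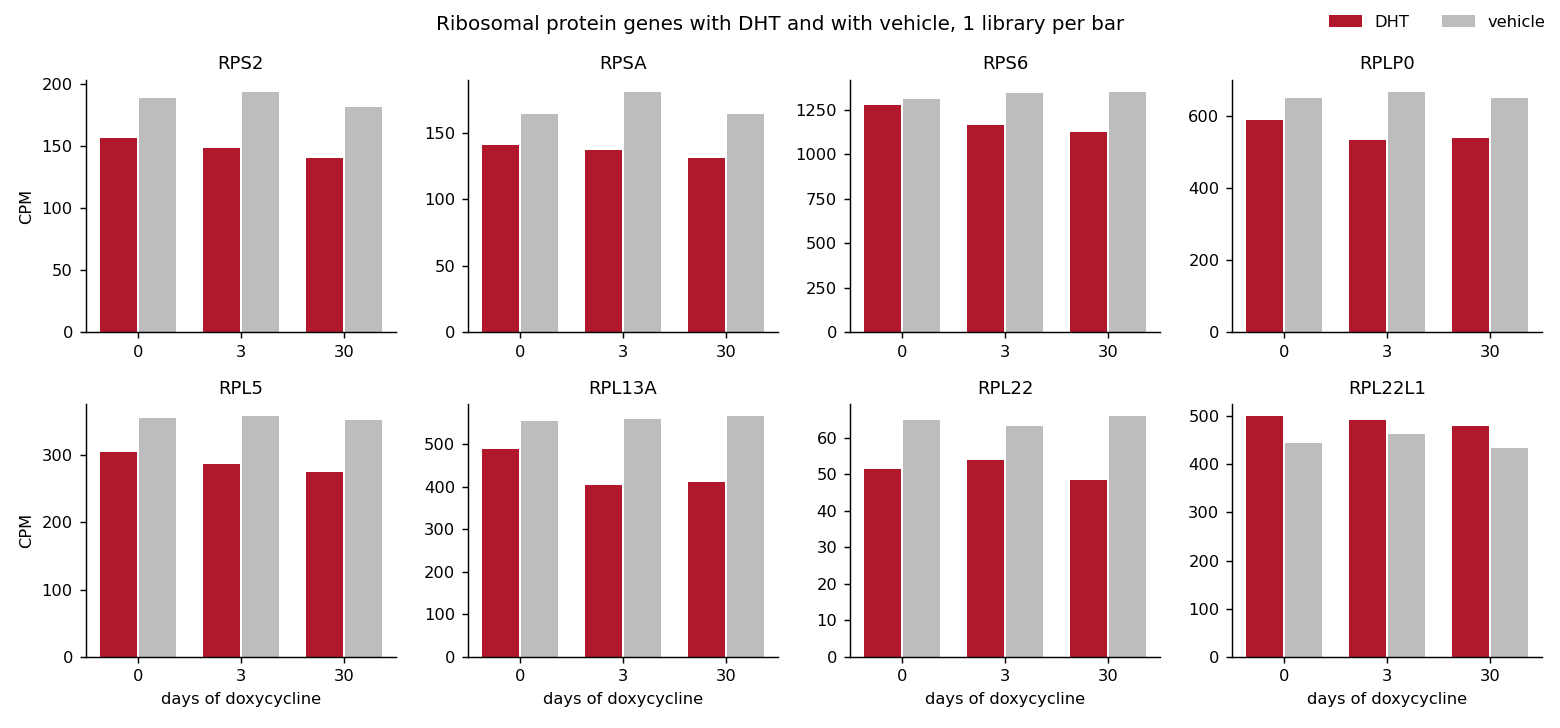
CPM (y axis, from 0) of 8 ribosomal protein genes in C4-2-tet-shRB cells by days of doxycycline (x axis), with DHT (red, left) and vehicle (grey, right); each bar is 1 library. DHT is below vehicle at each level for 7 genes, and RPL22L1 is above it.

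Read as single pairs, the DHT effect was smaller without doxycycline. The median ratio of DHT to vehicle was 0.958 over 79 genes at 0 days, 0.866 over 81 genes at 3 days and 0.880 over 80 genes at 30 days. Few were beyond 1.5-fold. At 0 days RPS10 was higher, at 1.52 (1.12 to 2.08), and RPS26 lower, at 0.619 (0.459 to 0.829), with 1 gene each way against 10.6% and 10.7% of genes. At 3 days 0 were higher and 2 lower, among them RPL36A at 0.596, against 8.9% and 7.39%, and at 30 days 1 was higher and 2 lower, against 8.33% and 7.64%. The higher one was RPL7, with 58 counts with DHT against 45 with vehicle (1.52, 1.01 to 2.30), and the lower ones were RPL10L (0.635) and RPS3A (0.646). No replicate supports a difference between levels.

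Many genes that build ribosomes also fell with DHT. Of 50 ribosome biogenesis factors 27 fell and 2 rose (median -0.20). TCOF1, the nucleolar protein treacle, had 47.0, 58.8 and 58.2 CPM with DHT, against 110, 117 and 99.3 CPM with vehicle (-0.99 ± 0.07). FBL, the methyltransferase fibrillarin, had 60.4, 67.0 and 67.7 CPM with DHT, against 101, 110 and 99.4 CPM with vehicle (-0.67 ± 0.06). Of 14 RNA polymerase I genes and factors 9 fell, led by POLR1E (-0.68 ± 0.06), and of 12 snoRNA host genes 9 fell, led by SNHG1 (-0.78 ± 0.07).

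Of 17 other TOP mRNAs 10 fell and 1 rose with DHT. TPT1 rose (0.43 ± 0.06) and NAP1L1, a nucleosome assembly protein, fell (-0.98 ± 0.05). Among 19 regulators 5 rose and 6 fell, and MTOR had 270, 287 and 285 CPM with DHT, against 135, 137 and 137 CPM with vehicle (1.04 ± 0.05). DDIT4, an inhibitor of mTOR complex 1, had 143, 125 and 113 CPM with DHT, against 258, 241 and 234 CPM with vehicle (-0.95 ± 0.06). Of 75 mitochondrial ribosomal protein genes 8 rose and 19 fell (median -0.04), and of 20 p53 targets 5 rose and 11 fell. Over all genes tested 24.3% rose and 22.8% fell. The falls among mitochondrial ribosomal protein genes and the rises among the regulators and the p53 targets were near those shares. The other counts were not tested against them.

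Among the genes with a promoter window, 25 of the 47 with a C and T start fell with DHT (median -0.16). So did 3 of 6 with such a run within 3 bases of a start, and 0 of 14 without one (median -0.09). Over all genes tested 22.8% fell. Of the 14 genes 12 were below 0, and of the 47 genes 42 were. The 14 include genes of low level, such as RPL10L (2.26 to 4.64 CPM) and RPS26 (5.32 to 8.45 CPM), beside abundant ones such as RPL4. The classes rest on listed starts, not on starts measured in these cells. RPL17, for example, was among the 14, with a run of C and T bases that ended shortly before its listed start. Of 16 genes without a window 8 fell. The shares were not tested against each other. With doxycycline and GSK2879552 the same classes held 25 of 47, 5 of 6, 6 of 14 and 6 of 16 that fell, against 3.2% of all genes. With RB1 siRNA in VCaP they held 14 of 47, 4 of 6, 3 of 13 and 6 of 14, against 2.65%.

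The order of RPL22L1 and RPL22 differed between the lines, that of RPS27L and RPS27 between the tables. Per kilobase of GENCODE exon, a rough measure since it joins the exons of all transcripts, RPL22L1 had 8.69 to 10.3 CPM in VCaP, where RPL22 had 58.6 to 69.6 CPM. In C4-2-tet-shRB cells RPL22L1 had 56.1 to 79.6 CPM per kilobase in the experiment with GSK2879552 and 187 to 215 in that with DHT, where RPL22 had 19.2 to 25.2 and 10.4 to 14.1. In LNCaP RPL22L1 had 40.1 to 49.7 CPM per kilobase and RPL22 14.7 to 16.9. RPL22 thus stood above RPL22L1 in every VCaP library and below it in every C4-2-tet-shRB and LNCaP library, an order within each table. RPS27L had 4.87 to 5.86 CPM per kilobase in VCaP and 5.84 to 8.57 in the experiment with GSK2879552, where RPS27 had 7.63 to 13.2 and 10.8 to 16.4, so RPS27L was lower in every library. It was higher in every library of the DHT experiment (8.21 to 8.98, with RPS27 at 3.60 to 4.36) and in both of LNCaP. RPS27 had few counts there, 384 in the DHT experiment and 125 in LNCaP, with 262 and 66 more on its pseudogene rows. Those reads were left out, so the order of RPS27L and RPS27 is uncertain, most of all in LNCaP. RPL7L1 was above RPL7 per kilobase in every library of all 4 tables, with pseudogene rows left out. RPL7 had 159 counts in VCaP, against 3520 on its pseudogene rows. In the experiment with GSK2879552 it had 3405, against 39065 on those rows. This order is therefore uncertain, and it was not computed with those reads added. RPL10L had 0 counts in every VCaP library, and RPL39L was at or near 0 in all libraries. In VCaP RPL22L1 had 23.2, 22.2 and 24.0 CPM with RB1 siRNA, against 20.6, 20.2 and 21.4 CPM with control siRNA, with no call (0.16 ± 0.11).

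**Figure D5:**
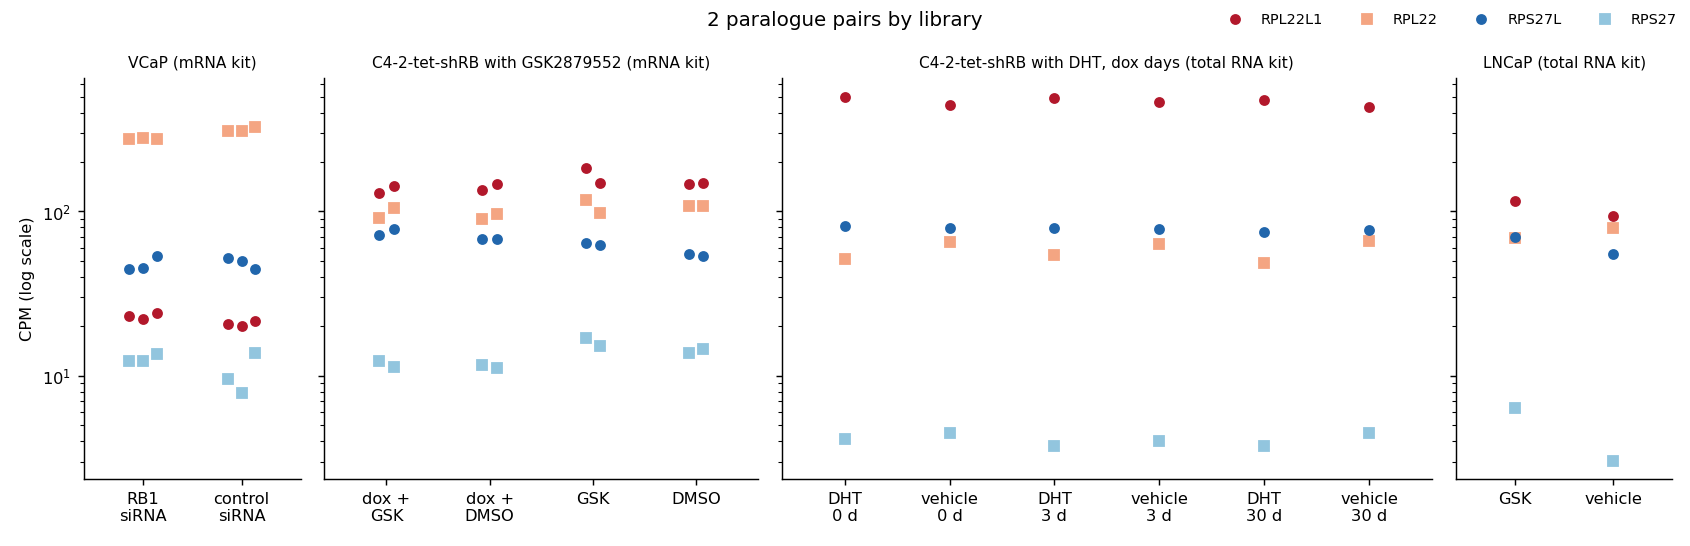
CPM on a log scale (y axis) of RPL22L1, RPL22, RPS27L and RPS27 in each library (points) by group, treated groups left of their controls within each panel. RPL22 lies above RPL22L1 in VCaP and below it in every other panel, and RPS27L lies above RPS27 throughout in CPM; per kilobase of exon it is below RPS27 in VCaP and in the experiment with GSK2879552.

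Ribosomal protein genes have many processed pseudogenes that share their sequence, and 857 rows of the tables carried the name of 75 of the 87 genes with a P and a number. In the C4-2 experiment with GSK2879552 these rows held 1373902 counts, against 5450405 on the 87 genes, and 11 of the genes had more counts on pseudogene rows than on their own. The numbers of such genes were 5 in VCaP, 4 in the DHT experiment and 5 in LNCaP. How reads with several alignments were counted is not given in the sources used here. Levels of RPS10, RPS27 and RPL7 in particular are therefore uncertain, as are those of RPL13A and RPSA in the experiment with GSK2879552. With pseudogene counts added, 29 genes fell in VCaP, 44 with doxycycline and GSK2879552, and 36 with DHT.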

How the data were processed

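The authors deposited raw counts per Ensembl gene, not normalized. Per the submitters' processing notes these came from featureCounts 1.6.4 after STAR 2.7.2 alignment to hg19 (GRCh37) and FastQC 0.11.9 quality checks. Strand setting, annotation version and handling of multiply aligned reads are not given in the sources used here. All 30 columns were mapped to samples (0 were not), and lanes of 1 library were summed. Each table was fitted in edgeR 4.0.16 (R 4.3.3) with TMM, filterByExpr and the quasi-likelihood F test, adjusted over all genes tested. The 4 groups with GSK2879552 or DMSO shared 1 fit, and the 6 DHT libraries 1 fit with terms for DHT and for each doxycycline level, added without interaction (2 residual degrees of freedom). The SE is the log2 fold change over the square root of F. Single-library pairs give ratios for genes with at least 100 counts. The steps were tested on simulated data. Members, gene lists and tests were chosen with earlier results of these data known. Named genes were the up to 5 largest called rises and falls per comparison, a set followed throughout (paralogues and parents, the P stalk, RPSA, RPS6, RPL5, RPL11 and RPL13A), the extreme ratios of pairs, and up to 2 called genes of lowest p in each list and direction. Alternatives were other size factors, TMM without the members, no filter, DESeq2 1.42.0, pseudogene counts added, a replicate block, and single libraries left out. Some genes the rule names are not reported here.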

Additional observations from a re-analysis of the deposited data

How the results depend on the processing

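The median of the ribosomal protein genes kept its sign under RLE size factors, TMM without these genes and DESeq2 in each fitted comparison. DESeq2 called 17 genes lower in VCaP, 1 higher with GSK2879552 alone, 0 lower at 30 days of doxycycline and 0 higher with DHT. Without a filter on low counts, 1 rose with GSK2879552 alone and 0 with DHT. Fitting only the 2 groups compared, with 2 residual degrees of freedom, gave 33 lower and 2 higher for doxycycline with DMSO, 8 lower for doxycycline with GSK2879552 and 3 lower for GSK2879552 with doxycycline; the cause was not tested.

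Same-numbered libraries did not deviate together in VCaP (correlations -0.03 to 0.04), and a replicate block gave 32 lower there. Nothing in the labels pairs the C4-2 numbers. With the block 3 fell for doxycycline with DMSO and 24 with GSK2879552. Deviations of the group given GSK2879552 alone ran opposite. A block with its numbers crossed was chosen after seeing these deviations. It gave 7 higher for GSK2879552 alone and 1 higher and 56 lower for doxycycline with GSK2879552. That choice takes up the spread it was picked from, so these counts are no check on the others.

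Leaving out single libraries, the number that fell was 13 to 23 in VCaP, 0 to 24 for doxycycline with DMSO, 2 to 58 with GSK2879552, 0 to 3 for GSK2879552 alone, 0 to 2 with doxycycline, 0 to 3 for the difference of responses, 0 to 5 at 3 days, 0 to 19 at 30 days, 0 to 2 between them and 18 to 49 with DHT. The number that rose was 0 to 2 for doxycycline with DMSO, 0 to 1 with GSK2879552, 0 to 7 for GSK2879552 alone, 0 to 1 at 3 days, 0 to 1 with DHT and 0 to 0 otherwise. The median turned to 0.02 at 3 days of doxycycline without the DHT library of 0 days, to 0.01 for GSK2879552 with doxycycline without doxycycline and GSK2879552 replicate 2, and to 0.00 between 30 and 3 days without the 3-day vehicle library. At 30 days it ran from -0.14 to -0.03, and in the other fitted comparisons it kept its sign.

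For single pairs the counts follow the limits. DHT at 0 days gave 12 lower at 1.2-fold, 0 higher and 0 lower at 2-fold or in either lane, 2 lower from 20 counts, and 0 higher and 2 lower with pseudogenes. At 3 days it gave 23 lower at 1.2-fold, 0 at 2-fold, 1 in either lane and 0 with pseudogenes. At 30 days it gave 2 higher and 23 lower at 1.2-fold, 0 and 0 at 2-fold or in either lane, 3 higher from 20 counts and 0 higher with pseudogenes, where RPL7 turned to a log2 ratio of -0.20. LNCaP gave 10 higher and 13 lower at 1.2-fold, 1 and 2 at 2-fold, and 0 higher in either lane. A lane holds part of a library's counts, so fewer genes reach the minimum. Without mitochondrial genes in the denominator, the ratio of shares was 0.935 for doxycycline with DMSO (0.921 with them), 0.849, 0.791 and 0.797 for DHT at 0, 3 and 30 days, and 0.979 in LNCaP. Genes near 100 counts, among them RPS10, RPS27, RPL7 and RPL36A, are limited by depth.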
